A study of Mus musculus with 4 samples.

Results

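Glycolysis and hypoxia-response genes were described across 4 conditions of mouse bone marrow-derived dendritic cells. The set was chosen by gene symbol, with earlier results of these data known. It held 39 genes: sugar and lactate transporters, glycolytic enzymes and targets of the hypoxia-inducible factor HIF. Of these, 36 were measured by a probe set that names no other gene, among 19938 genes named on the array. Gapdh was named only on 25 probe sets that each also name other genes, between 4 and 8 in all, and no probe set listed Gpi1 or Eno1, so these 3 genes have no value here. Where a gene had several probe sets, the one with the highest mean over the 4 arrays was used. The conditions were NR4A3 siRNA with LPS, control siRNA with LPS, NR4A3 siRNA without LPS and control siRNA without LPS, each on 1 Affymetrix Mouse Gene 1.0 ST array. All cells came from whole marrow grown with 20 ng/mL GM-CSF in medium with 10% serum, and all were electroporated with an siRNA on day 10. LPS, at 100 ng/mL, was present for the last 24 hours, from 24 hours after transfection. The mice are called BALB/c where the culture is described, but each sample is tagged C57BL/6. Such cultures are mixtures that can hold macrophage-like cells beside dendritic cells, and every condition, controls included, had been transfected.

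Glycolysis splits glucose into pyruvate, which is either oxidized in mitochondria or reduced to lactate and exported. Dendritic cells and macrophages raise glycolytic flux after Toll-like receptor signals, and HIF-1, a heterodimer of the labile subunit HIF-1alpha and the stable subunit ARNT, drives many of the genes concerned. In oxygenated cells prolyl hydroxylases of the EGLN family mark HIF-1alpha for VHL-dependent degradation, so that HIF activity is set mainly by protein stability. HIF binds the core letters ACGTG or GCGTG in regulatory DNA.

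Since HIF targets make up much of the list, the promoters of its members were searched for these letters on both strands, in a window of 250 bases before to 50 bases after each start in the RefSeq promoter table (GRCm38.p6). The table held 36 of the 39 members, and 33 of those had the letters in the window of at least 1 start, a share of 91.7%. Over all 27025 genes of the table the share was 46.7%. Members had more starts per gene, with 56 windows for 36 genes, against 32851 windows for all genes. Promoters of members were also richer in CpG, with a median of 23 per window against 7 over all promoters. Counted by window, 80.4% of the members' windows held the letters, against 43.8% of all windows and 74.7% of the 7071 windows with at least 23 CpG. The letters ACGTG also form part of the E-box CACGTG, which occurred in 7 of the 36 members (19.4%) and in 8.09% of all genes of the table. All 10 members that rose with LPS on average had the letters, and so did 18 of the 20 with a window that did not pass that test. Counted by window, 14 of 14 held them in the first group and 23 of 33 (69.7%) in the second. The gap between these groups was not tested. The promoters below are those of 2 members for each direction: Pfkfb3 and Ankrd37, the members with the widest average rises past the test, and Aldoc and Slc16a1, the only members that fell. Several members that rose had wider effects than Slc16a1. They are written 5′ to 3′ on the gene's strand with the HIF core letters of either strand in capitals. The windows are chr2:11553880-11554179 (minus strand) for Pfkfb3, chr8:45999801-46000100 (minus strand) for Ankrd37, chr11:78322823-78323122 (plus strand) for Aldoc and chr3:104638414-104638713 (plus strand) for Slc16a1. Pfkfb3 and Aldoc have 2 starts each in the table and are shown at the one listed first.
Pfkfb3: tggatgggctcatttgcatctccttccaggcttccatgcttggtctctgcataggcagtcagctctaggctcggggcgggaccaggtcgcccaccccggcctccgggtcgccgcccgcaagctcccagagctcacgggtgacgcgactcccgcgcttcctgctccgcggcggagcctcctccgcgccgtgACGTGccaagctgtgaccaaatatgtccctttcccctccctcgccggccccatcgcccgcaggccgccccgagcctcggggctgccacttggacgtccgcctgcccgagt
Ankrd37: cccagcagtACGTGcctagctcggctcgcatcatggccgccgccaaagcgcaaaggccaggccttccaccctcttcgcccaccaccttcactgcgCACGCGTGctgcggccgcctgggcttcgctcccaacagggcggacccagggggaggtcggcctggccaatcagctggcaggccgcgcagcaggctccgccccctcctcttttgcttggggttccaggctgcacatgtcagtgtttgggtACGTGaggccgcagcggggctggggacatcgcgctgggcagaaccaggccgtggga
Aldoc: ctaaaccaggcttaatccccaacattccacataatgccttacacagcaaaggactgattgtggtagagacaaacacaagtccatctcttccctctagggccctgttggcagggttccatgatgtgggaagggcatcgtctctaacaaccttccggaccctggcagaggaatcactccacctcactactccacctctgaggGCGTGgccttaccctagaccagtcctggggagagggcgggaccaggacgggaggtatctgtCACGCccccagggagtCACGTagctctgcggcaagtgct
Slc16a1: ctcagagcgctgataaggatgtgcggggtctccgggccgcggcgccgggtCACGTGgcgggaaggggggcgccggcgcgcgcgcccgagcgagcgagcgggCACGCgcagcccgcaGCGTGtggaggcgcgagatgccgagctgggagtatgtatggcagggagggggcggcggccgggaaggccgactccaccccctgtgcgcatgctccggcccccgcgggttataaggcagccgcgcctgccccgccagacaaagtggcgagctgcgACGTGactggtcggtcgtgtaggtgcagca
The shown Pfkfb3 window holds 1 match, which begins 60 bases before the start. Ankrd37 has 4 matches, the nearest 6 bases before the start. Aldoc has 3, of which 1 lies before the start. Slc16a1 has 5, and a pair of these are the 2 strands of 1 E-box. Members that rose and members that fell thus both held the letters.

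The targeted gene checks the labels. Nr4a3 stood at 9.39 with NR4A3 siRNA and 11.77 with control siRNA under LPS, and at 7.15 with NR4A3 siRNA and 11.21 with control siRNA without LPS, all on the log2 scale. The 4 arrays had medians between 6.37 and 6.42. Of 10 dendritic cell markers 9 reached the filter on dim genes, 6.66 on the log2 scale, on every array, with Itgax between 12.38 and 12.89, while Flt3 was below it on all 4. Of 8 macrophage markers 6 or 7 reached it on each array, and Vsig4 on none. Their sum, as log2 of summed linear levels, was 14.70 with NR4A3 siRNA and 14.44 with control siRNA under LPS, against 14.20 with NR4A3 siRNA and 14.09 with control siRNA without LPS, while that of the dendritic cell markers was 14.92 with NR4A3 siRNA and 15.24 with control siRNA under LPS, against 14.70 with NR4A3 siRNA and 15.14 with control siRNA without LPS. The dendritic cell markers did not move as a set between the siRNAs. Without LPS, Ccr7 stood at 9.46 with NR4A3 siRNA and 12.99 with control siRNA, and Cd83 at 8.44 and 11.09. Under LPS, Ccr7 stood at 12.64 with NR4A3 siRNA and 13.38 with control siRNA, and Cd83 at 10.63 and 12.36. In contrast, Cd74 lay between 13.39 and 13.47 on the 4 arrays and H2-Ab1 between 12.27 and 12.49. The macrophage markers went both ways with LPS: Fcgr1 was higher by 2.52 with NR4A3 siRNA and 2.72 with control siRNA, whereas the Mrc1 difference was -3.86 with NR4A3 siRNA and -3.97 with control siRNA. At 1.5-fold 3 of them were higher and 2 lower with NR4A3 siRNA, and 2 were higher and 3 lower with control siRNA. None of 8 T and NK cell, 4 B cell and 3 erythroid markers reached the filter, nor did 7 of 8 neutrophil markers, the exception being S100a8. Of 6 mast cell and basophil markers Kit alone reached it, on 3 arrays. Of 5 stromal markers 4 reached it, with a sum of 10.72 with NR4A3 siRNA and 10.49 with control siRNA under LPS, against 9.21 with NR4A3 siRNA and 9.22 with control siRNA without LPS. Dcn alone carried that difference, at 3.25 with NR4A3 siRNA and 2.69 with control siRNA, while the other 4 stromal markers differed with LPS by between -0.21 and 0.02. The sum of 8 proliferation markers was 10.37 with NR4A3 siRNA and 10.30 with control siRNA under LPS, against 11.43 with NR4A3 siRNA and 12.42 with control siRNA without LPS. The part of these marker differences in the results below was not tested. In such bulk RNA, fewer cells of a type and less RNA per cell cannot be told apart.

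The level of each member on each array is plotted by role. Of the 36 measured genes, 32 reached the filter on all 4 arrays. Egln3 and Ankrd37 reached it on 3 arrays, Higd1a on 2 and P4ha2 on none. For 17 members the 4 levels lay within 0.5 of each other. Aldoa, an aldolase, stayed between 13.21 and 13.31 and Bnip3l, a mitophagy receptor, spanned 0.05. A range of at least 1 was found for 7 members, of which Aldoc had the widest, at 2.46, followed by Pfkfb3 at 2.26.

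**Figure D1:**
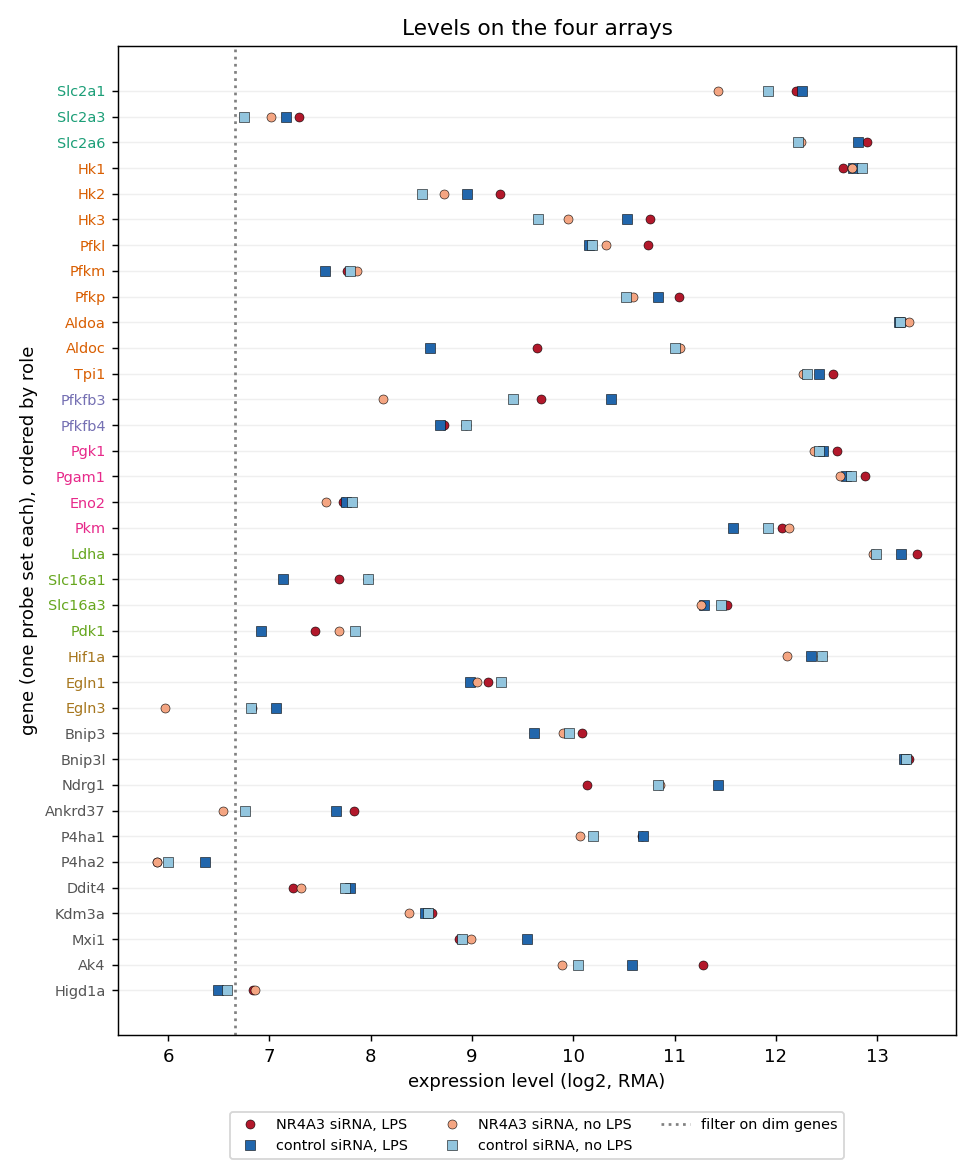
Level of each of the 36 measured genes (rows, coloured by role) on the 4 arrays, on the log2 RMA scale of the horizontal axis. Circles are NR4A3 siRNA and squares control siRNA, dark with LPS and light without. The dotted line is the filter at 6.66, and the points of Aldoc spread over 2.46 and those of Bnip3l over 0.05.

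LPS against no LPS asks how activation moved these genes. Across both siRNAs, 10 members rose with LPS and 2 fell. Those that rose were the glucose transporter genes Slc2a1 and Slc2a6, the enzyme genes Hk2, Hk3 and Pfkp, the regulator gene Pfkfb3, the hydroxylase genes Egln3 and P4ha1, and Ankrd37 and Ak4. Aldoc and Slc16a1 fell. The average effects come from an additive fit of siRNA and LPS over the 4 arrays (limma, Benjamini-Hochberg over 10592 genes, adjusted p under 0.05). This fit has 1 residual degree of freedom, which holds array noise together with any difference in LPS effect between the siRNAs. Nothing in the labels tells whether each array had its own culture. The p-values therefore cover no more than scatter among 4 arrays, which may be technical. That scatter is mostly not each gene's own, because limma adds 4.76 prior degrees of freedom estimated over all genes tested. The SEs and intervals below rest on the same pooled variance. Among the 35 members tested, 28.6% rose and 5.71% fell, where 15.6% of all genes tested rose and 14.4% fell. Since the members were chosen with earlier results of these data known, these shares are a description and were not tested. In all 34.3% of the members changed, against 30.0% of all genes, a share near the background. At an unadjusted p under 0.05 the shares were 42.9% of the members and 41.9% of all genes. The median average effect of the members was 0.10, against 0.001 over all genes.

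**Figure D2:**
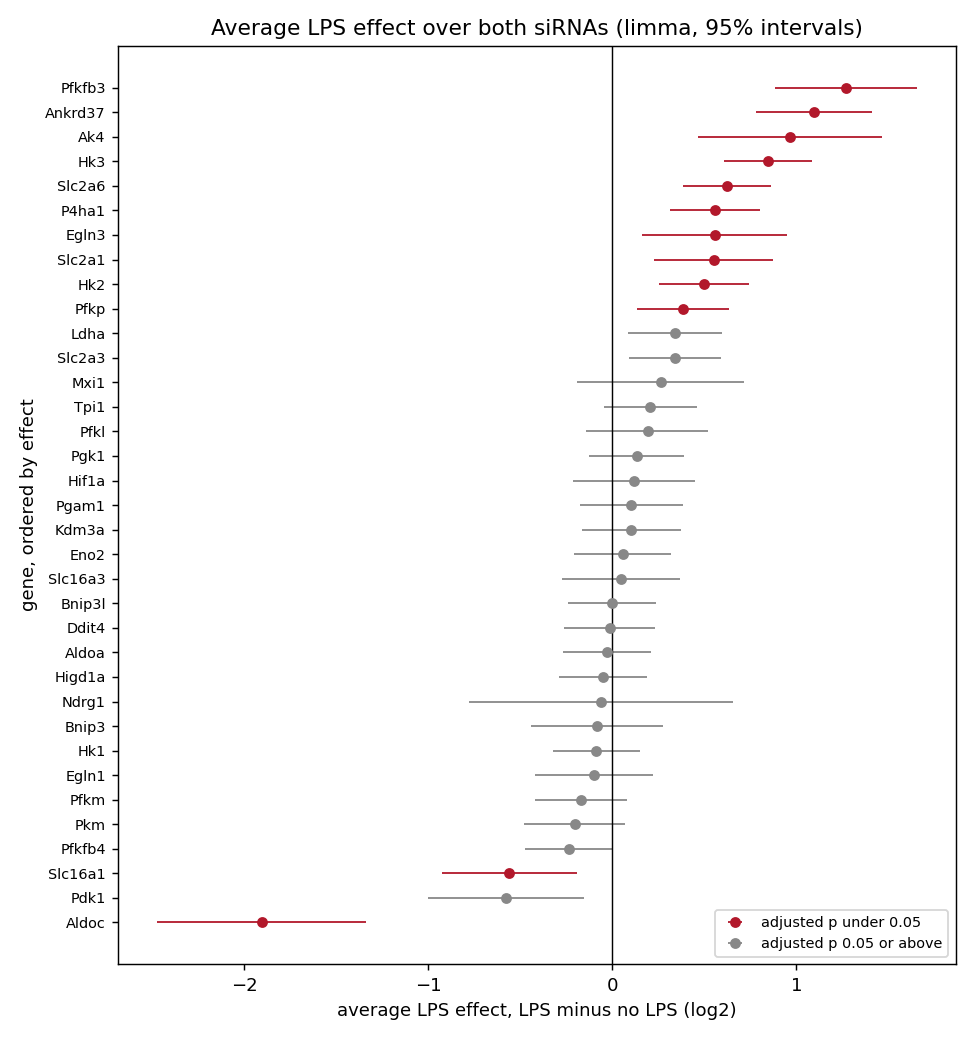
Average LPS effect (LPS minus no LPS, log2) of the 35 members that passed the filter, with 95% intervals from the additive limma fit. Red marks adjusted p under 0.05. Pfkfb3 lies at the upper end, at 1.27, and Aldoc at the lower end, at -1.91.

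Between single pairs of arrays the counts were as follows. With NR4A3 siRNA, 8 of 35 members were at least 1.5-fold higher under LPS, where 10.3% of 10353 genes were, and 2 were lower, where 6.88% were. With control siRNA, 6 of 34 members were at least 1.5-fold higher, where 10.2% of 10346 genes were, and 3 were lower, where 9.44% were. A gene entered such a count when the brighter array of its pair reached the filter. A pair of arrays has no replicate, so these differences carry no test. Median differences of the members were 0.23 with NR4A3 siRNA and -0.01 with control siRNA, against 0.02 and -0.02 over all genes. The median size of the difference over members was 0.27 with NR4A3 siRNA and 0.31 with control siRNA, where it was 0.23 in either case over all genes. In both directions together, 10 members (28.6%) passed 1.5-fold with NR4A3 siRNA, where 17.2% of genes did, and 9 (26.5%) with control siRNA, where 19.7% did. At 2-fold, 3 members were higher and 1 lower under LPS with NR4A3 siRNA, where 5.31% and 2.71% of genes were. With control siRNA 0 were higher and 1 was lower, where 5.0% and 3.83% were.

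Of the 3 sugar transporter genes, 2 rose with LPS. Slc2a1 encodes GLUT1, the main glucose carrier of activated myeloid cells. Its level was 12.20 with NR4A3 siRNA and 12.26 with control siRNA under LPS, against 11.43 with NR4A3 siRNA and 11.93 with control siRNA without LPS. Both LPS arrays lay above both unstimulated ones, and the average rise was 0.55 ± 0.13 (SE; limma, adjusted p = 0.0271). Slc2a6 encodes GLUT6, a hexose transporter of lysosomal membranes. It stood at 12.90 with NR4A3 siRNA and 12.81 with control siRNA under LPS, against 12.24 with NR4A3 siRNA and 12.21 with control siRNA without LPS. The siRNAs differed there by less than 0.1 in either state, and the LPS rise was 0.62 ± 0.10 (SE; limma, adjusted p = 0.00625). Slc2a3, the GLUT3 gene, reached 7.29 with NR4A3 siRNA and 7.16 with control siRNA with LPS and 7.02 with NR4A3 siRNA and 6.75 with control siRNA without LPS. Its average difference of 0.34 ± 0.10 (SE) did not pass the test (limma, adjusted p = 0.0515). It passed with cyclic loess, median centring and the mean of probe sets, at 0.0449, 0.0402 and 0.0464.

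Hexokinases phosphorylate glucose at the entry of the pathway. The gene of the inducible, mitochondria-bound form, Hk2, had levels of 9.28 with NR4A3 siRNA and 8.95 with control siRNA under LPS, against 8.72 with NR4A3 siRNA and 8.51 with control siRNA without LPS. It rose by 0.50 ± 0.10 (SE; limma, adjusted p = 0.0149). Hk3, the form typical of myeloid cells, had 10.75 with NR4A3 siRNA and 10.53 with control siRNA under LPS and 9.95 with NR4A3 siRNA and 9.65 with control siRNA without LPS. Its rise of 0.84 ± 0.10 (SE; limma, adjusted p = 0.00222) corresponds to 1.8-fold and was near-equal under the siRNAs, at 0.81 with NR4A3 siRNA and 0.88 with control siRNA. The housekeeping form Hk1 differed by -0.09 (95% interval -0.33 to 0.15). That value is from the brighter of 2 probe sets. On the dimmer one the LPS differences were 0.36 with NR4A3 siRNA and 0.13 with control siRNA, so the probe sets disagree in sign, and 16 further probe sets name Hk1 together with other genes. The table gives no probe positions, so it was not settled whether the brighter probe set reads Hk1 itself or a processed copy elsewhere in the genome, and the Hk1 value is uncertain to that extent. The same holds for the probe sets used for Ak4, Pgam1, Pgk1, Bnip3 and Bnip3l.

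Phosphofructokinase commits the sugar to glycolysis. Pfkp, its platelet-type isoform, rose by 0.38 ± 0.10 (SE; limma, adjusted p = 0.0363), with 11.04 with NR4A3 siRNA and 10.84 with control siRNA under LPS against 10.58 with NR4A3 siRNA and 10.52 with control siRNA without LPS. The liver-type gene Pfkl stood at 10.73 with NR4A3 siRNA and LPS and between 10.15 and 10.32 on the other 3 arrays. Its average LPS difference was 0.19 ± 0.13 (SE; limma, adjusted p = 0.338). Pfkm, the muscle type, had a difference of -0.17 ± 0.10 (SE; limma, adjusted p = 0.258).

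Pfkfb3 and Pfkfb4 are bifunctional enzymes that make and remove fructose 2,6-bisphosphate, the allosteric activator of phosphofructokinase, and PFKFB3 strongly favours its synthesis. Pfkfb3 stood at 9.68 with NR4A3 siRNA and 10.37 with control siRNA under LPS, against 8.12 with NR4A3 siRNA and 9.40 with control siRNA without LPS. Both LPS arrays were higher than both arrays without LPS, and within either state the NR4A3 siRNA array was lower. The LPS rise was 2.96-fold with NR4A3 siRNA and 1.97-fold with control siRNA, on average 1.27 ± 0.16 (SE; limma, adjusted p = 0.00281). Pfkfb4 had 8.72 with NR4A3 siRNA and 8.68 with control siRNA under LPS, against 8.94 in both conditions without LPS, and its difference of -0.24 ± 0.10 (SE) did not pass the test (limma, adjusted p = 0.121). The test of Pfkfb3 against Pfkfb4 itself was not run.

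Aldolases split fructose 1,6-bisphosphate. The ubiquitous form, Aldoa, lay between 13.21 and 13.31 on the 4 arrays. Aldoc, a form best known from brain, stood at 9.64 with NR4A3 siRNA and 8.59 with control siRNA under LPS, against 11.05 with NR4A3 siRNA and 11.001 with control siRNA without LPS. Both LPS levels lay well below both unstimulated ones. It was 2.65-fold lower with LPS under NR4A3 siRNA and 5.32-fold lower under control siRNA, where it ranked 27th from the lowest of 10346 genes. The fall averaged -1.91 ± 0.23 (SE; limma, adjusted p = 0.00265).

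Tpi1, the triose isomerase gene, had an average LPS difference of 0.21 ± 0.10 (SE; limma, adjusted p = 0.189). Pgk1 and Pgam1, whose products make the first ATP of the payoff phase and move its phosphate group, were at 0.13 (95% interval -0.13 to 0.39) and 0.10 (-0.18 to 0.38). Eno2, an enolase isoform known from neurons, was at 0.06 (-0.21 to 0.32), and Pkm, the pyruvate kinase gene of most tissues, at -0.21 (-0.48 to 0.07). None of these 5 passed the test. Pgk1 and Pgam1 each had 3 single-symbol probe sets, of which 2 carried identical values, so those readings are not independent.

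Of the 4 genes of lactate and pyruvate handling, 1 fell with LPS. Ldha, which turns pyruvate into lactate, stood at 13.40 with NR4A3 siRNA and 13.24 with control siRNA under LPS, against 12.96 with NR4A3 siRNA and 12.99 with control siRNA without LPS. Its difference of 0.34 ± 0.10 (SE) narrowly missed the threshold (limma, adjusted p = 0.0551). It passed with median centring, the 75th percentile filter, an intensity trend and the mean of probe sets, at between 0.0108 and 0.0495. Slc16a3, the gene of the lactate exporter MCT4, was at 11.52 with NR4A3 siRNA and 11.29 with control siRNA under LPS, against 11.26 with NR4A3 siRNA and 11.46 with control siRNA without LPS, with the states overlapping and an average of 0.04 (95% interval -0.28 to 0.37). Slc16a1 encodes MCT1, a carrier that moves lactate in either direction. Its levels were 7.69 with NR4A3 siRNA and 7.14 with control siRNA under LPS, against 7.98 with NR4A3 siRNA and 7.97 with control siRNA without LPS, and it fell by 0.56 ± 0.15 (SE; limma, adjusted p = 0.0375), a call lost with cyclic loess and with no filter, at 0.0555 and 0.0785. Pdk1, the kinase that blocks pyruvate dehydrogenase, had 7.45 with NR4A3 siRNA and 6.92 with control siRNA with LPS and 7.68 with NR4A3 siRNA and 7.84 with control siRNA without LPS. It was 1.18-fold lower with LPS under NR4A3 siRNA and 1.90-fold lower under control siRNA, an average of -0.58 ± 0.17 (SE), which did not pass (limma, adjusted p = 0.0533). With median centring, an intensity trend and the mean of probe sets it passed, at 0.0468, 0.0437 and 0.0416.

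Hif1a, the gene of the labile HIF-1alpha subunit, stood at 12.11 with NR4A3 siRNA and no LPS and between 12.34 and 12.46 on the other 3 arrays. Its average LPS effect was 0.12 (95% interval -0.21 to 0.45; limma, adjusted p = 0.554). The level of HIF-1alpha protein was not measured. Egln1, the main oxygen-sensing hydroxylase gene, had 9.16 with NR4A3 siRNA and 8.98 with control siRNA under LPS and 9.05 with NR4A3 siRNA and 9.29 with control siRNA without LPS, with the states overlapping. Egln3 encodes a hydroxylase that is itself a HIF target. It stood at 6.83 with NR4A3 siRNA and 7.07 with control siRNA under LPS, against 5.97 with NR4A3 siRNA and 6.82 with control siRNA without LPS, and rose by 0.56 ± 0.16 (SE; limma, adjusted p = 0.0475). The array with NR4A3 siRNA and no LPS was lower than the other 3 and below the filter, so its folds are approximate. That call was lost with cyclic loess, with no filter and with an intensity trend, where the adjusted p was 0.0695, 0.0991 and 0.0503.

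Other HIF targets split into several patterns. Ankrd37, an ankyrin-repeat gene often used as a marker of HIF activity, stood at 7.84 with NR4A3 siRNA and 7.65 with control siRNA under LPS, against 6.54 with NR4A3 siRNA and 6.76 with control siRNA without LPS. It rose by 1.09 ± 0.13 (SE; limma, adjusted p = 0.00233), or 2.14-fold, from levels near the filter. P4ha1, the catalytic subunit gene of collagen prolyl 4-hydroxylase, had 10.67 with NR4A3 siRNA and 10.69 with control siRNA under LPS and 10.06 with NR4A3 siRNA and 10.19 with control siRNA without LPS, a rise of 0.56 ± 0.10 (SE; limma, adjusted p = 0.0100). Ak4, a mitochondrial adenylate kinase gene, reached 11.28 with NR4A3 siRNA and 10.58 with control siRNA under LPS, against 9.89 with NR4A3 siRNA and 10.04 with control siRNA without LPS. Its rise was 0.96 ± 0.20 (SE; limma, adjusted p = 0.0179), and the second probe set of Ak4 also read higher with LPS, by 0.77 with NR4A3 siRNA and 0.46 with control siRNA. With no filter on dim genes the adjusted p values of Ak4 and Slc2a1 were 0.0508 and 0.0552.

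Several classical hypoxia markers showed no LPS effect past the test. The mitophagy receptor gene Bnip3 had 10.08 with NR4A3 siRNA and 9.61 with control siRNA under LPS, against 9.90 with NR4A3 siRNA and 9.96 with control siRNA without LPS, and Bnip3l stayed between 13.26 and 13.32. Kdm3a, a histone H3K9 demethylase gene, lay between 8.38 and 8.60, and Higd1a, a gene of a mitochondrial inner membrane protein, between 6.49 and 6.86, on both sides of the filter. The second Higd1a probe set disagreed in sign, with LPS differences of 0.11 with NR4A3 siRNA and 0.24 with control siRNA. Ddit4, whose product REDD1 restrains mTORC1, had 7.23 with NR4A3 siRNA and 7.79 with control siRNA with LPS and 7.31 with NR4A3 siRNA and 7.74 with control siRNA without LPS. P4ha2 peaked at 6.36, under the filter, and was not tested. The 95% intervals of the average LPS effect were -0.44 to 0.28 for Bnip3, -0.24 to 0.24 for Bnip3l, -0.17 to 0.37 for Kdm3a, -0.29 to 0.19 for Higd1a and -0.26 to 0.23 for Ddit4.

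NR4A3 siRNA against control siRNA compares cells with less Nr4a3 RNA with their controls. The depth of silencing differed between the states: Nr4a3 was 5.21-fold lower with NR4A3 siRNA under LPS and 16.6-fold lower without. Of the 35 members tested, 1, Pfkfb3, passed the test over both states, at -0.99 ± 0.16 (SE; limma, adjusted p = 0.0307), where 3.58% of all genes fell and 1.98% rose, 5.56% in all. It was 1.61-fold lower with NR4A3 siRNA under LPS and 2.43-fold lower without. This call was lost with cyclic loess and with no filter, at adjusted p of 0.0542 and 0.0788. Ddit4 was lower in both states, by 0.56 with LPS and 0.43 without, and narrowly missed the threshold (-0.50 ± 0.10, SE; limma, adjusted p = 0.0505). It passed with median centring, with an intensity trend and with the mean of probe sets, at 0.0407, 0.0414 and 0.0401. Egln3 had an average of -0.54 ± 0.16 (SE; limma, adjusted p = 0.107) and Pkm one of 0.35 ± 0.11 (SE; limma, adjusted p = 0.125). The second probe set of Pkm differed between the siRNAs by 0.15 with LPS and 0.05 without, against 0.48 and 0.21 on the one used. At an unadjusted p under 0.05, 8 of 35 members (22.9%) would pass, where 26.2% of all genes would.

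Between single pairs of arrays, 2 of 35 members were at least 1.5-fold higher with NR4A3 siRNA under LPS, where 3.73% of 10210 genes were, and 3 were lower, where 4.73% were. Ak4 (1.62-fold) and Aldoc (2.08-fold) were higher, and Pfkfb3, Mxi1 (1.59-fold) and Ndrg1 (2.45-fold) were lower. The Ak4 call rested on its brighter probe set: the second one read 1.08-fold higher with NR4A3 siRNA under LPS, and with the mean of probe sets Ak4 was 1.32-fold higher and the call was lost. With cyclic loess and with quantile normalization repeated, Ddit4 also passed 1.5-fold lower in the LPS pair. Without LPS, 0 of 35 were higher, where 1.62% of 10257 genes were, and 2 were lower, where 4.69% were. These were Pfkfb3 and Egln3 (1.8-fold). In both directions together 5 of 35 members passed with LPS, where 8.46% of genes did, and 2 of 35 without, where 6.31% did. At 2-fold 1 member was higher and 1 lower with LPS, where 0.47% and 1.67% of genes were, and without LPS 0 were higher and 1 lower, where 0.205% and 1.72% were. The median difference of members was 0.14 with LPS and -0.04 without, against 0.05 and 0.02 over all genes. In the same pair without LPS, NR4A3 siRNA came with lower levels, by 1.5-fold or more, of all 8 proliferation markers, and none was past 1.5-fold in the LPS pair. Of the 9 dendritic cell markers past the filter, 3 were lower by that rule with NR4A3 siRNA in each state, Ccr7 and Cd83 among them both times. Of the macrophage markers 3 were higher with LPS and 1 without. The part of all these markers in the members' differences was not tested.

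Last, the LPS difference under NR4A3 siRNA was set beside that under control siRNA. The 2 LPS comparisons share no array. Nr4a3 itself was 4.71-fold higher with LPS under NR4A3 siRNA and 1.47-fold higher under control siRNA. Its silencing was thus not equal in the 2 states that are compared. Ndrg1, a gene of a stress-responsive protein known as a hypoxia marker, stood at 10.14 with NR4A3 siRNA and 11.43 with control siRNA under LPS, against 10.86 with NR4A3 siRNA and 10.83 with control siRNA without LPS. The unstimulated arrays thus differed by 0.02, and the LPS arrays lay on opposite sides of them. Ndrg1 was 1.65-fold lower with LPS under NR4A3 siRNA and 1.51-fold higher under control siRNA, a difference of LPS effects of -1.32, the 23rd lowest of 10592 genes. Over the whole array, 7 of 10107 genes (0.0693%) were past 1.5-fold in opposite directions under the siRNAs, and Ndrg1 was 1 of them. With quantile normalization repeated, the Ndrg1 LPS difference under control siRNA was 0.45 (1.36-fold), so that this call in opposite directions was lost, while the signs stayed opposite. Mxi1, a MAX-binding antagonist of MYC, had 8.87 with NR4A3 siRNA and 9.54 with control siRNA under LPS, against 8.99 with NR4A3 siRNA and 8.90 with control siRNA without LPS. It was 1.08-fold lower with LPS under NR4A3 siRNA and 1.56-fold higher under control siRNA, with a difference of LPS effects of -0.75.

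**Figure D3:**
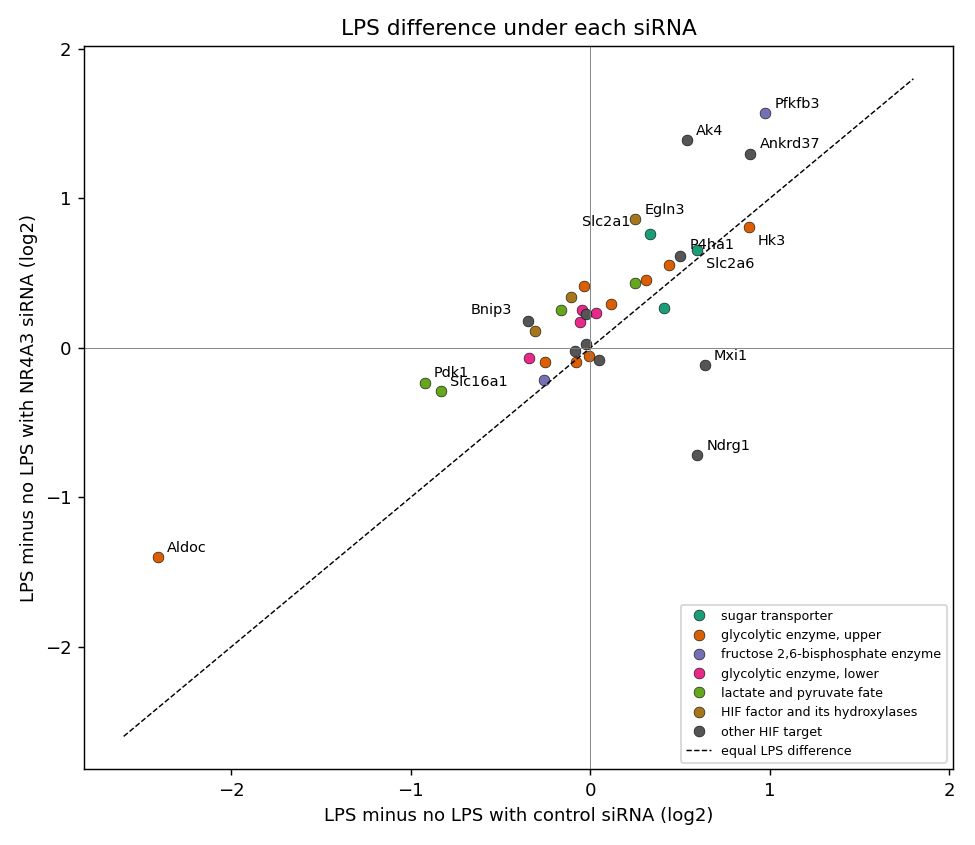
LPS difference (LPS minus no LPS, log2) with NR4A3 siRNA on the vertical axis and with control siRNA on the horizontal axis, for the 35 members that passed the filter, coloured by role, 1 array a condition. Of these points, 28 lie above the dashed line of equal differences, and Ndrg1, at -0.72 and 0.60, lies farthest below it.

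In the other direction, LPS differences were higher under NR4A3 siRNA than under control siRNA for 28 of the 35 members (80.0%), where 59.1% of all genes were. The median difference of LPS effects was 0.20 over members and 0.05 over all genes. With quantile normalization repeated over the named genes, the counts were 27 of 35 members (77.1%) and 50.2% of all genes. Aldoc (1.01), Ak4 (0.86), Pdk1 (0.69), Egln3 (0.61), Pfkfb3 (0.59), Slc16a1 (0.55) and Bnip3 (0.52) had the highest values on the probe sets used. Of all genes, 95% lay within 0.585 of 0. Slc16a1 and Bnip3 lay inside that range and Pfkfb3 just outside it. The Ak4 value was 0.31 on its second probe set and 0.58 with the mean of probe sets, both inside that range. For Bnip3 the value was 0.405 on its second probe set and 0.465 with the mean of probe sets. Aldoc, Pdk1 and Slc16a1 were lower with LPS under both siRNAs, less so with NR4A3 siRNA. Ak4, Egln3 and Pfkfb3 were higher with LPS under both, more so with NR4A3 siRNA, and for Egln3 and Pfkfb3 the widest gap between the siRNAs lay in the unstimulated arrays. A difference of differences over 4 arrays leaves no residual degree of freedom, so none of these values has a test. Across the 35 members the LPS differences under the siRNAs had a Pearson's r of 0.751, against 0.894 across 10592 genes, which are not independent replicates.

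**Figure D4:**
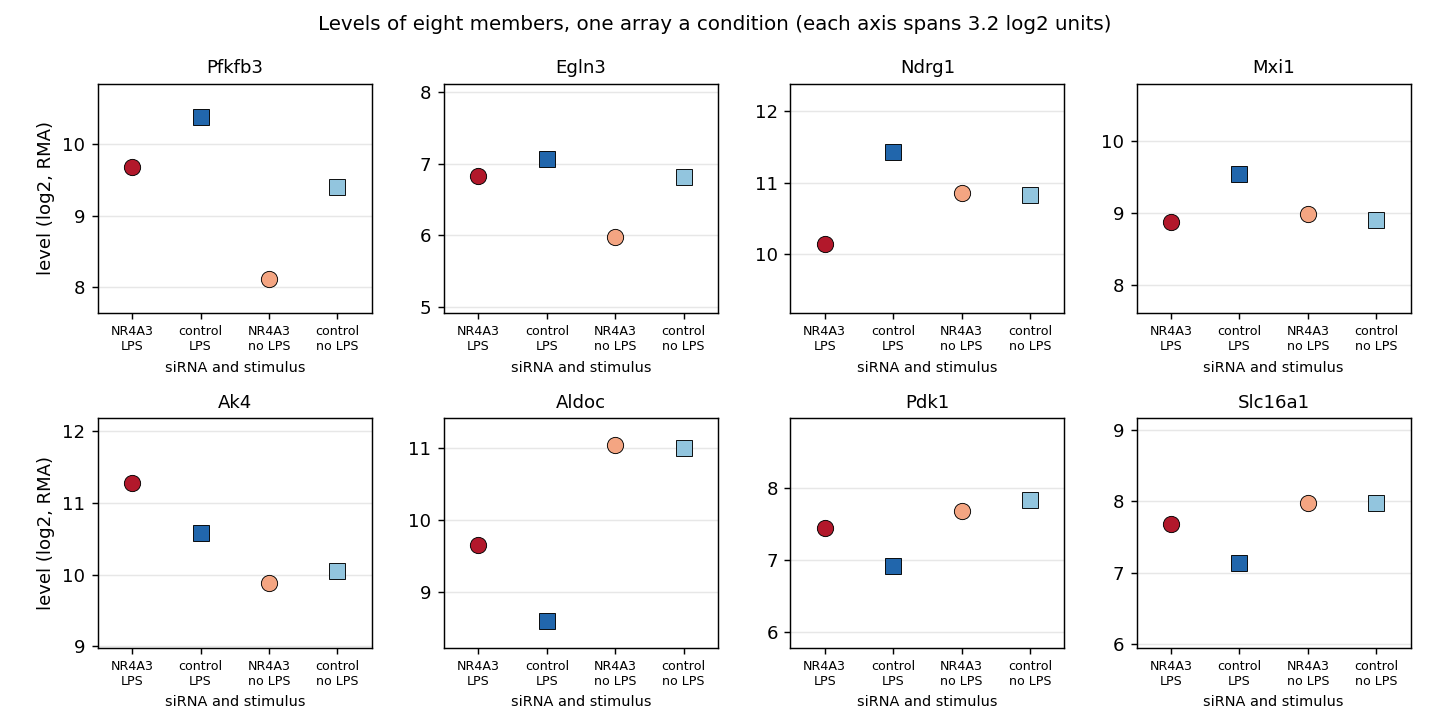
Level (log2 RMA) of 8 members on the 4 arrays, 1 point for each array, with NR4A3 siRNA left of control siRNA and LPS left of no LPS. Pfkfb3 is lower with NR4A3 siRNA in both states, while the Ndrg1 levels of 10.14 and 11.43 part only in the LPS arrays.

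Other genes of these pathways were taken from lists by known function, written with earlier results of these data known, and the genes named are those with the widest average LPS effect in each list. Over all genes tested, 15.6% rose and 14.4% fell with LPS, with a median average effect of 0.001. The counts of each list were not tested against these shares. Of 27 further genes of glycolysis and pyruvate entry that passed the filter, 3 rose and 6 fell with LPS, with a median average effect of -0.05. Ldhb, the heart-type lactate dehydrogenase gene, which favours pyruvate formation, stood at 7.96 with NR4A3 siRNA and 7.69 with control siRNA under LPS, against 9.59 with NR4A3 siRNA and 9.33 with control siRNA without LPS, and fell 3.10-fold (limma, adjusted p = 0.00022). Slc16a7, a monocarboxylate carrier gene (2.05-fold), Galm, the aldose mutarotase gene (1.75-fold), and the kinase gene Pdk2 (1.56-fold) fell as well. Of 9 pentose phosphate genes 2 rose and 2 fell. Taldo1 and Tkt, of the non-oxidative branch, fell 1.53-fold and 1.49-fold, and Rpe and H6pd rose 1.36-fold and 1.38-fold. Of 19 genes of the tricarboxylic acid cycle and its feeders 1 rose and 6 fell, with a median of -0.24. Idh1, the cytosolic isocitrate dehydrogenase gene, fell 2.01-fold, Fh1 1.75-fold and Idh2 1.62-fold, whereas the pyruvate carboxylase gene Pcx rose 1.87-fold. All effects named here passed limma's adjusted p of 0.05.

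Of 14 regulators of HIF, 1 rose and 1 fell with LPS, where 15.6% of all genes tested rose and 14.4% fell. Epas1, the gene of HIF-2alpha, had 6.44 under LPS with either siRNA, against 7.90 with NR4A3 siRNA and 7.03 with control siRNA without LPS, a fall of 1.03 ± 0.20 (SE; limma, adjusted p = 0.0149) to levels below the filter. The elongin C gene Eloc, of the VHL ligase complex, rose 1.43-fold (limma, adjusted p = 0.0117). Vhl (0.27) and Arnt2 (-0.32) did not pass. Among 27 further HIF targets that passed the filter, 6 rose and 4 fell with LPS, with a median of -0.03. Nos2, the inducible nitric oxide synthase gene, and the collagen cross-linking gene Lox rose by 5.78 and 3.22, from unstimulated levels below the filter, so that these sizes are approximate. Cited4 rose 1.82-fold with LPS and was also higher with NR4A3 siRNA on average, by 0.89 (limma, adjusted p = 0.0132), and Zfp395 fell 1.89-fold with LPS. Of 18 signalling regulators of glycolysis, 5 rose and 4 fell. Ikbke and Tbk1, kinases linked to early glycolytic induction in dendritic cells, rose 1.98-fold and 1.74-fold. Myc, a transcriptional driver of glycolytic genes, stood at 7.24 with NR4A3 siRNA and 7.0 with control siRNA under LPS, against 9.08 with NR4A3 siRNA and 8.60 with control siRNA without LPS, and fell 3.29-fold, and Txnip, which restrains glucose uptake, fell 1.51-fold. Myc moved in the same direction as the proliferation markers, of which 7 of 8 fell with LPS. Without LPS, Myc was higher by 0.48 with NR4A3 siRNA, while all 8 proliferation markers were at least 1.5-fold lower. A link between Myc and these markers was not tested.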

How the data were processed

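The value table of the 4 arrays holds log2 expression values that the authors deposited after RMA, a summary with quantile normalization according to the labels. Affymetrix Expression Console 1.1 is listed in the submitters' processing notes, and GeneSpring in the design text. Earlier filters and the genome build are not stated in the label texts. Quantile normalization hides any shift of most genes in 1 direction.

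Gene symbols came from GEO's platform annotation: of 28856 probe sets, 21789 had 1 symbol, 1621 several and 5446 none here. Identifiers of 21698 were found in the RefSeq table (GRCm38.p6), with 0 symbols updated. This gave 19938 genes, 999 of them with several probe sets. The filter, 6.66, is the median of named genes over the arrays.

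Differences are between single arrays. The additive fit used limma 3.58.1 in R 4.3.3 (lmFit, eBayes, 3 coefficients, 1 residual and 4.76 prior degrees of freedom) and was tested on simulated data. The simulated data were additive with independent noise, so that test did not cover a difference in LPS effect between the siRNAs. The number of arrays limits precision. Members and lists were chosen with earlier results of these data known. Named were all members, Nr4a3 and up to 4 genes of each other list with the widest average LPS effect. Alternatives were other normalizations, thresholds, filters, a variance trend and averaged probe sets.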

Additional observations from a re-analysis of the deposited data

Results flagged for a closer look

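Ndrg1 moved in opposite directions with LPS under the siRNAs, with differences of -0.72 with NR4A3 siRNA and 0.60 with control siRNA. Each value comes from 1 pair of arrays, and the difference between them was not tested. Under median centring, cyclic loess, repeated quantile normalization and the mean of probe sets the difference of LPS effects stayed between -1.36 and -1.27. Under repeated quantile normalization the LPS difference with control siRNA was 0.45, under 1.5-fold.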

How the results depend on the processing

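Leaving out an array was not possible, since each condition has 1, and no paired analysis was possible because each group has a single array. At 2-fold in place of 1.5-fold, the counts of members higher and lower with LPS were 3 and 1 with NR4A3 siRNA (8 and 2 at 1.5-fold) and 0 and 1 with control siRNA (6 and 3). For NR4A3 siRNA against control siRNA they were 1 and 1 with LPS (2 and 3), and 1 was lower without LPS (2). A filter at the 75th percentile (8.67) left 1 member lower with LPS under control siRNA and 1 lower with NR4A3 siRNA without LPS. With the mean of probe sets, 1 member was higher with NR4A3 siRNA under LPS, since Ak4 was lost. With quantile normalization repeated, Slc2a6 was under 1.5-fold with LPS under both siRNAs, Ndrg1 under control siRNA and P4ha1 under NR4A3 siRNA, the last also with cyclic loess. In the additive fit, 1 member fell with LPS, in place of 2, with cyclic loess, with no filter and with the 75th percentile filter. The count lower with NR4A3 siRNA, 1 as reported, was 0 with cyclic loess and with no filter, and 2 with median centring, with an intensity trend and with the mean of probe sets. The other counts stayed within 1.5 times. No difference past 1.5-fold changed sign under another normalization or with the mean of probe sets. Of 400 adjusted p-values of members under alternatives, 9 lost and 13 gained the threshold. Folds of genes below the filter are approximate. The normalizations of the difference of LPS effects were chosen after seeing the data.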
